A study of Mus musculus with 4 samples.

Results

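The 9 genes Nfkbia, Nfkbiz, Tnfaip2, Tnfaip3, Birc3, Icam1, Relb, C3 and Ubd, which respond to the transcription factor NF-kB, were followed through single-cell RNA libraries of the mouse mammary gland. They were chosen by name, with earlier results of these data known. All 9 are among the 31781 genes listed in any of the 4 deposited count tables (20479 genes are in every table). All mice carried the MMTV-PyMT transgene, in which a mammary tumor virus promoter drives the polyoma middle T oncogene in mammary epithelium. The hyperplasia mice were 8 to 9 weeks old and the tumor mice are labelled 16 to 20 weeks, for which the study's own description gives 22 weeks. At each stage 1 library came from mice labelled WT and 1 from mice labelled PKA activated, that is, with active protein kinase A, the kinase switched on by cyclic AMP. The sources used here do not say how the kinase was activated, in which cells, or how many mice went into a library. The WT groups carry the oncogene too, so no library is from a gland without it.

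NF-kB is a family of dimeric transcription factors held in the cytoplasm by IkB proteins. Tumor necrosis factor, interleukin 1 and ligands of Toll-like receptors lead to phosphorylation and loss of IkB, after which NF-kB enters the nucleus and binds short kB sites in DNA. Several of the genes it switches on encode its own inhibitors, and in the mammary gland the pathway takes part in growth of the secretory epithelium, in its regression after lactation and in inflammation.

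The 9 genes fall into feedback regulators (Nfkbia, Nfkbiz, Tnfaip3 and Birc3), a subunit (Relb), a cell surface protein (Icam1) and further induced genes (Tnfaip2, C3 and Ubd). Of these, 7 (all but Nfkbiz and Relb) had an entry among the RefSeq promoters (GRCm38.p6), each covering 250 bases before and 50 after the transcription start, with 8 windows in all. The kB consensus, searched on both strands, was found in windows of 3 of these 7 genes (Nfkbia, Tnfaip3 and Ubd). It was found in 4.51% of all 32851 windows and for 5.14% of all 27025 genes. The looser form GGGNNNNNCC was found for 7 of 7, against 53.5% of all genes. The stretches around the consensus are printed because they are the letters through which NF-kB is known to read its targets. They run 5′ to 3′ along the gene's strand, with the consensus in capitals and ending before the start.
Nfkbia, chr12:55492657-55492686, minus strand, match from 29 to 20 bases before the start: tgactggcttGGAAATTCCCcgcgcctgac
Tnfaip3, chr10:19015516-19015545, minus strand, match from 125 to 116 bases before the start: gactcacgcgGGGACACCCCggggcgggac
Tnfaip3, chr10:19015411-19015432, minus strand, match from 12 to 3 bases before the start: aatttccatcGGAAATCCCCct
Ubd, chr17:37193867-37193891, plus strand, match from 15 to 6 bases before the start: cattgaacttGGGGATTTCCaaccc

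Of the 9 genes, C3 and Ubd had the largest differences between the hyperplasia libraries over all cells, and their 250 upstream bases are given whole so that they can be set side by side. Ubd has the consensus close to its start, and the C3 window holds no match to it.
Ubd, chr17:37193642-37193891, plus strand: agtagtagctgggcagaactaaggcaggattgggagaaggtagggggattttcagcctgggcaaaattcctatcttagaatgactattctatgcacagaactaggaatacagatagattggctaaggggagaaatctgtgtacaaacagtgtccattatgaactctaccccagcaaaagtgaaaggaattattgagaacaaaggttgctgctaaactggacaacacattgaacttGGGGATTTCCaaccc
C3, chr17:57228137-57228386, minus strand: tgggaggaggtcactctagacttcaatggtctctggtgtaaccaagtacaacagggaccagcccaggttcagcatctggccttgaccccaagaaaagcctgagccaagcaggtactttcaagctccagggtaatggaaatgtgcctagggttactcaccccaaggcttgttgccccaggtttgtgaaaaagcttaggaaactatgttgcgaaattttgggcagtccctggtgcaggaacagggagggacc

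The annotated cells numbered 3818 (PKA) and 3808 (WT) in hyperplasia and 2638 (PKA) and 5181 (WT) in tumors, with 10648097, 10797950, 16758734 and 24499374 UMIs (unique molecules counted). Any pair of libraries shared 16 to 24 cell barcodes. The authors' classes were Luminal Progenitor 1, Luminal Progenitor 2, Mature Luminal and Basal in hyperplasia, and Luminal Progenitor 1, Mature Luminal, Lumino-Basal and EMT-like in tumors. Basal and Mature Luminal cells, and Luminal Progenitor 1 cells in hyperplasia, were highest in their own defining markers. In tumors, luminal progenitor markers summed to more in the class labelled EMT-like than in Luminal Progenitor 1 (in CPM, the UMIs of a gene divided by all UMIs of the summed cells and scaled to 1e6, 7457 against 5033 in PKA and 2538 against 2116 in WT), and Lumino-Basal markers in WT to more in Mature Luminal (4563 CPM) than in Lumino-Basal cells (3410 CPM). Of the class labelled EMT-like the 4 defining markers summed to 365 CPM in the PKA library and 255 CPM in the WT library, the lowest of the 4 tumor classes, with Trim29 and Cldn6 at 0. All classes are named below by the authors' labels only. The PKA tumor library held 66 Lumino-Basal cells against 1198 in the WT library. With 1 library a group there is no replicate and no test. Each value is the CPM of UMIs summed over the cells of a class, the intervals are exact 95% intervals for counting error only, and a gene is called higher or lower at a 1.5-fold difference when the libraries together hold at least 50 of its UMIs.

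In hyperplasia the members split. C3 and Ubd were far lower in the PKA library, Tnfaip2 was higher, and the feedback regulators Nfkbia, Nfkbiz and Birc3 lay within the 1.5-fold limit. Over all cells, 2 of 9 were called higher (Tnfaip2 and Icam1) and 2 of 9 lower (C3 and Ubd), against 5.5% and 5.33% of all measured genes. In Luminal Progenitor 1 cells, which made up 75.6% of PKA and 71.5% of WT hyperplasia cells, 1 member was higher and 2 were lower, against 5.34% and 5.85%. The median log2 ratio of the 9 there was -0.11, beside -0.00 for all measured genes.

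**Figure D1:**
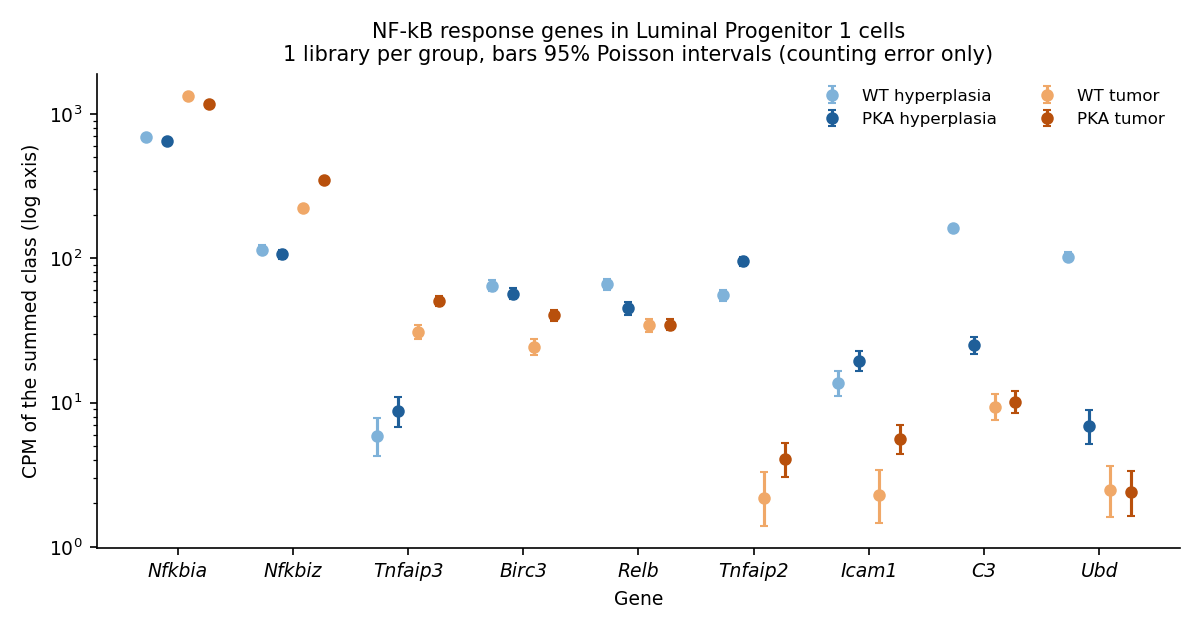
Level of the 9 genes in Luminal Progenitor 1 cells of the 4 libraries, in CPM on a log axis; points are the summed class of 1 library and bars 95% Poisson intervals. C3 and Ubd stand at 161 and 103 CPM in WT hyperplasia and below that in the other 3 libraries, and Tnfaip2 lies below 5 CPM in both tumor libraries.

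C3 (chr17:57203970-57228136, minus strand) encodes complement component C3, the protein on which the complement cascades converge. In Luminal Progenitor 1 cells it was at 161 CPM in the WT hyperplasia library (1264 UMIs) and at 25.0 CPM in the PKA hyperplasia library (201 UMIs). The PKA library was thus 6.45-fold lower, a log2 ratio of -2.69 (interval -2.91 to -2.47). Ubd (chr17:37193892-37196095, plus strand) encodes FAT10, a ubiquitin-like modifier that sends proteins to the proteasome and is induced by tumor necrosis factor and interferon gamma. It was at 103 CPM in the WT library (806 UMIs) and at 6.83 CPM in the PKA library (55 UMIs), 15.0-fold lower at a log2 ratio of -3.91 (-4.33 to -3.51). For neither gene do the intervals of the levels overlap.

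The difference in C3 was seen in the other classes as well, at lower counts. In Luminal Progenitor 2 cells it was at 55.6 CPM in WT against 11.3 CPM in PKA (log2 ratio -2.29, -3.18 to -1.52). In Basal cells it was at 84.6 and 37.0 CPM (-1.19, -2.08 to -0.34). Mature Luminal cells held 6 C3 UMIs in WT and 1 in PKA, too few to measure. Ubd was on the same side with smaller or poorly counted differences: 44 against 4 UMIs in Luminal Progenitor 2, 75.5 CPM in WT against 44.7 CPM in PKA in Mature Luminal cells (-0.76, -1.51 to 0.01), and 6 against 2 UMIs in Basal cells. The Mature Luminal ratio was -0.41, inside the limit, with each cell given equal weight. Mature Luminal cells therefore had the highest Ubd level of the PKA hyperplasia library, while Luminal Progenitor 1 cells had the highest in the WT library.

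Markers of other cell types differed between the Basal sums. The 9 macrophage markers summed to 443 CPM in WT Basal cells and 5.85 CPM in PKA Basal cells, where 7 of 9 were at 0. Class II and dendritic markers summed to 1231 and 138 CPM, and fibroblast markers to 1639 and 807 CPM. Without the cells that held a UMI of a defining marker of these types the Basal ratio of C3 was -1.07. In Luminal Progenitor 1 cells the macrophage markers summed to 12.4 CPM in WT and 8.94 CPM in PKA, and fibroblast markers to 4.71 and 5.84 CPM. Class II and dendritic markers there were at 80.0 and 44.1 CPM, with Itgax at 0 in both. Lymphocyte markers were again higher in PKA, at 15.6 CPM against 9.8 CPM in WT. Without the cells that held a marker UMI of another cell type, the Luminal Progenitor 1 ratio was -2.68 for C3 and -3.88 for Ubd.

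Shares of cells gave the same order. Each cell was thinned to 2000 UMIs, which left out 775 PKA and 632 WT Luminal Progenitor 1 cells of lower depth. A C3 UMI was then found in 456 of 2090 WT cells (21.8%, 20.1 to 23.7) and in 87 of 2110 PKA cells (4.12%, 3.32 to 5.06). Unthinned, the shares were 28.7% and 5.79%. A Ubd UMI was found in 12.8% of WT cells (11.4 to 14.3) and 1.23% of PKA cells (0.81 to 1.80), or 15.4% and 1.77% unthinned. In the WT library 4.99% of Luminal Progenitor 2 cells held C3 and 3.04% held Ubd at the same thinning, with median depths of 2499.5 UMIs there and 2690 in Luminal Progenitor 1. None of the 4 classes is known to lack either gene, so no share stands as a background level. A cell that held Ubd had 1.57 UMIs of it on average in WT and 1 in PKA, and a cell that held C3 had 1.44 and 1.13. Fewer cells with a UMI and fewer UMIs in each thus went together for both genes.

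**Figure D2:**
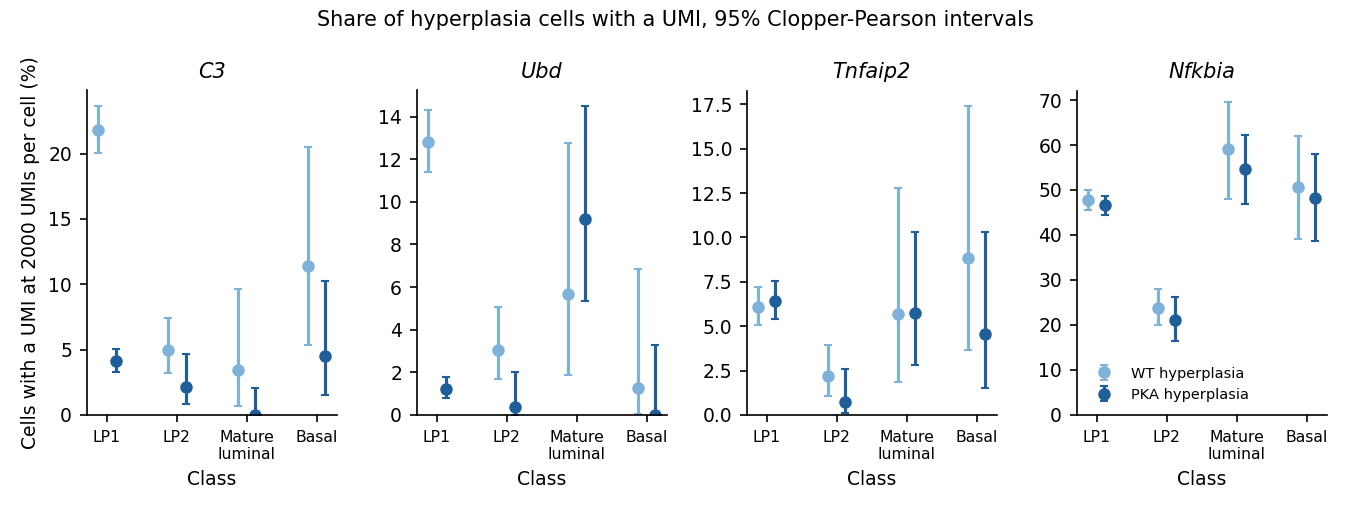
Share of hyperplasia cells with a UMI of C3, Ubd, Tnfaip2 or Nfkbia after thinning to 2000 UMIs per cell, by class (LP1 and LP2 are Luminal Progenitor 1 and 2), in percent with 95% Clopper-Pearson intervals. C3 and Ubd intervals are apart in LP1, whereas those of Tnfaip2 and Nfkbia overlap in every class.

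Tnfaip2 (chr12:111442469-111455018, plus strand), a gene induced by tumor necrosis factor whose protein shapes membrane protrusions, went the other way in Luminal Progenitor 1 cells. It stood at 95.02 CPM in the PKA library and 55.3 CPM in the WT library, a log2 ratio of 0.78 (0.61 to 0.96). The share of thinned cells with a UMI hardly differed, at 6.40% in PKA and 6.08% in WT, with overlapping intervals. The positive cells held 2.82 UMIs each in PKA and 1.95 in WT. The gene was concentrated in few cells: in each library 29 cells, 1.37% in PKA and 1.39% in WT, held 50% of its thinned UMIs. For Nfkbia the same part was spread over 194 and 191 cells. In Luminal Progenitor 2 cells Tnfaip2 was lower in PKA, at 8.31 against 19.9 CPM (-1.26, -2.37 to -0.28), from 11 and 43 UMIs. In Basal cells it was at 44.8 CPM in both libraries.

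Icam1 (chr9:21015985-21028817, plus strand), the adhesion molecule through which leukocytes hold on to epithelium and endothelium, was at 19.4 CPM in PKA against 13.6 CPM in WT Luminal Progenitor 1 cells (0.51, 0.14 to 0.88), short of the limit. It was called higher in PKA in Mature Luminal cells, at 78.9 against 36.4 CPM (1.11, 0.26 to 2.07), and in Basal cells, at 78.0 against 47.3 CPM (0.72, -0.10 to 1.59). Both rest on low counts, 60 and 14 UMIs in the first class and 40 and 19 in the second. An antisense gene overlaps an exon of Icam1 and another overlaps one of Tnfaip2 in GENCODE M21, and whether the counting used strand was not stated, so reads of the partners may be mixed.

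The inhibitors stayed close together. Nfkbia (chr12:55489410-55492647, minus strand) encodes IkB-alpha, the inhibitor that NF-kB itself induces. It was at 646 CPM in PKA against 690 CPM in WT Luminal Progenitor 1 cells (-0.10, -0.15 to -0.04), and its log2 ratio lay between -0.05 and 0.07 in the other hyperplasia classes. In Basal cells that value moved to 0.64, past the limit, without the cells that held a marker UMI of another cell type. Nfkbiz (chr16:55811375-55838899, minus strand) encodes the nuclear IkB-zeta, a cofactor for secondary response genes. It was at 107 and 115 CPM in the same cells (-0.11, -0.24 to 0.03). Tnfaip3 (chr10:19000910-19015657, minus strand) encodes A20, an enzyme that edits ubiquitin chains and ends signalling. It was at 8.69 and 5.86 CPM (0.57, 0.01 to 1.14), and passed the limit at 0.66 when each cell had equal weight. Birc3 (chr9:7848699-7873186, minus strand) encodes a ubiquitin ligase of tumor necrosis factor receptor complexes, with the close paralog Birc2 beside it, so its reads may be split. It was at 56.9 and 64.7 CPM (-0.19). Over all annotated cells of a class, none of these 4 was called in hyperplasia.

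Relb (chr7:19606217-19629438, minus strand), the subunit of the alternative NF-kB pathway, had a log2 ratio below 0 in every hyperplasia class, with an interval that leaves out 0 in both progenitor classes. Luminal Progenitor 1 cells had it at 45.1 CPM in PKA against 66.1 CPM in WT (-0.55, -0.75 to -0.36), just inside the limit. Among the 4 classes it passed in Luminal Progenitor 2, at 24.2 against 44.5 CPM (-0.88, -1.50 to -0.29). In Basal cells it was at -0.30, or -0.65 without the cells that held a marker UMI of another cell type. After thinning, 8.53% of PKA and 12.0% of WT Luminal Progenitor 1 cells held a Relb UMI (7.37 to 9.80 and 10.6 to 13.5). Relb, C3 and Ubd were the 3 members whose share intervals did not overlap in that class. Shares of cells were computed for the members only, so this count has no background of all genes.

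Across the smaller hyperplasia classes the calls were few. In Luminal Progenitor 2, 0 of 6 measured members were higher and 3 lower (C3, Relb and Tnfaip2), against 5.07% and 5.51% of all measured genes. In Mature Luminal, 1 of 5 was higher and 1 lower, against 11.8% and 12.1%. In Basal, 1 of 5 was higher and 1 lower, against 6.46% and 8.41%. With 5 members measured, 1 gene is a share of 20%, so these 2 classes give little to read against the background. Icam1 in both of them, and C3 in Basal, also passed the UMI minimum only through the library where they are high.

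**Figure D3:**
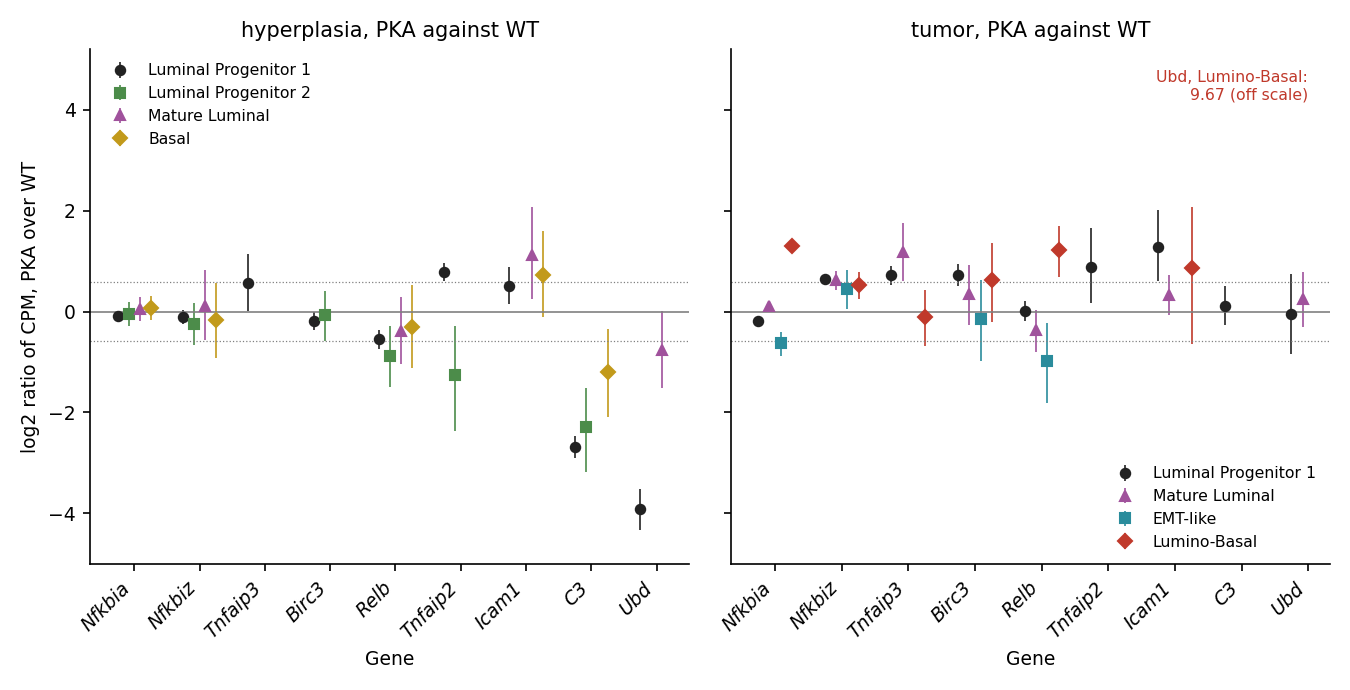
log2 ratio of CPM, PKA over WT, for each measured member in each class, hyperplasia on the left and tumor on the right, with 95% counting intervals; dotted lines mark 1.5-fold. C3 lies below the lower line in all 3 hyperplasia classes where it was measured, and Nfkbia leaves the lines only in the Lumino-Basal class and the class labelled EMT-like; Ubd in Lumino-Basal cells (9.67) is off the scale and written in.

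Within Luminal Progenitor 1 the members also differed in which cells held them. Csf3, encoding the granulocyte colony-stimulating factor and chosen here after its values had been seen, had a UMI in 913 PKA and 835 WT hyperplasia cells of the class. These cells were slightly deeper than the rest, with median UMIs of 2744 against 2525 in PKA and 2878 against 2614 in WT. Tnfaip2 was at 206 CPM in PKA cells with a Csf3 UMI and 39.3 CPM in those without. In WT it was at 129 and 19.3 CPM, that is 6.68-fold higher with Csf3. Nfkbia was at 1067 and 435 CPM in PKA and at 1144 and 469 CPM in WT, 2.45-fold and 2.44-fold higher. Icam1 was at 31.3 and 13.4 CPM in PKA and at 21.4 and 9.85 CPM in WT.

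C3 and Ubd did not share this pattern in the WT library. C3 was at 141 CPM in WT cells with a Csf3 UMI and 170 CPM in those without (log2 ratio -0.27, -0.45 to -0.09), and Ubd was at 101 and 103 CPM (-0.03, -0.24 to 0.19). In PKA, C3 was at 31.3 and 21.8 CPM and Ubd at 8.94 and 5.78 CPM. The deficit in PKA was present in both sets of cells: the PKA over WT log2 ratio of C3 was -2.18 (-2.54 to -1.83) with and -2.97 (-3.26 to -2.69) without a Csf3 UMI, and that of Ubd was -3.50 (-4.17 to -2.90) and -4.16 (-4.73 to -3.64). For Nfkbia the ratio was -0.10 and -0.11.

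**Figure D4:**
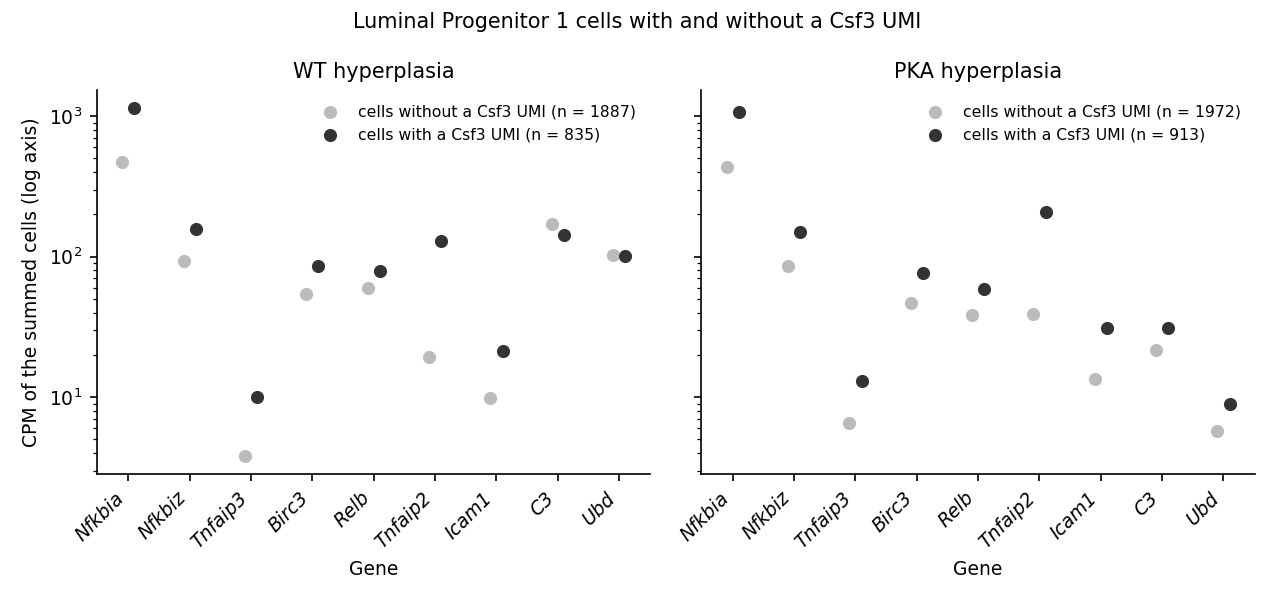
CPM of the 9 genes in Luminal Progenitor 1 hyperplasia cells with (dark) and without (grey) a Csf3 UMI, WT library on the left and PKA on the right, log axis. Tnfaip2 and Nfkbia are higher in cells with Csf3 in both libraries, and C3 and Ubd are not in WT.

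Pairs of members in the same thinned cell gave weak correlations throughout, given here as description. In PKA hyperplasia Luminal Progenitor 1 cells, 28 of the 55 cells with Icam1 also held Tnfaip2 (50.9%, against 5.21% of the rest, r = 0.37 over 2110 cells). In WT these were 11 of 50 (22.0% against 5.69%, r = 0.16 over 2090 cells). Nfkbia was found in 84.4% of PKA cells with Tnfaip2 and 44.0% of those without. In WT, 102 of the 456 cells with C3 held Ubd (22.4% against 10.2%, r = 0.15). In PKA it was 1 of 87 (1.15% against 1.24%).

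The rest of the pathway was compared from lists of genes. In Luminal Progenitor 1 hyperplasia, 0 of 7 measured subunits and further IkB proteins, 0 of 23 kinases and adaptors, 0 of 2 ligands and 0 of 8 receptors were called in either direction. Tnf, the main ligand, was at 55.5 CPM in PKA against 53.0 CPM in WT, Rela at 127 and 115 CPM and Nfkb1 at 220 and 182 CPM. Nfkb2, the partner of Relb, was at 68.3 and 91.6 CPM (-0.42, -0.59 to -0.26). Of 17 other measured targets, 2 were higher and 1 was lower. The chemokine genes Cxcl1 (1059 against 397 CPM, 1.42, 1.36 to 1.47) and Ccl2 (20.6 against 8.15 CPM, 1.34, 0.91 to 1.78) were higher in PKA. Csf1, the macrophage growth factor gene, was lower (148 against 256 CPM, -0.79, -0.89 to -0.68). The median log2 ratio of these 17 was 0.06. Immediate early genes, which respond to handling, summed to 4094 CPM in PKA and 4309 CPM in WT, with 1 of 13 called.

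In tumor Luminal Progenitor 1 cells C3 and Ubd were at 10.1 CPM or less in both libraries, and several of the feedback regulators were higher in PKA. Over all tumor cells 4 of 9 members were called higher in PKA (Nfkbiz, Birc3, C3 and Tnfaip2) and 0 lower, against 13.8% and 13.1% of all measured genes. With every class weighted equally Nfkbiz (0.58) and Birc3 (0.45) lost the call, and with each cell given equal weight Tnfaip2 (0.46) did. In Luminal Progenitor 1 cells 5 of 9 were higher (Nfkbiz, Tnfaip3, Birc3, Icam1 and Tnfaip2) and 0 lower, against 14.1% and 9.78%. The members' median log2 ratio there was 0.64, beside -0.02 for all measured genes. At a 2-fold limit 1 member, Icam1, was called, and the share of all genes at that limit was not computed. The classes took unequal shares: Luminal Progenitor 1 was 81.8% of PKA and 45.2% of WT tumor cells, so values over all cells mix class make-up and level. With class shares made equal between the libraries, the ratio over all cells turned from -0.25 to 0.65 for Icam1, from -0.07 to 0.26 for Nfkbia and from -0.17 to 0.18 for Relb, and that of Ubd moved from 0.32 to 2.24. Within classes the Ubd ratio was -0.05 in Luminal Progenitor 1 and 0.25 in Mature Luminal cells. The 2.24 rests on 66 PKA Lumino-Basal cells with 50 Ubd UMIs, 37 of them in 5 cells, against 1 UMI in WT.

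Nfkbiz was at 348 CPM in PKA against 224 CPM in WT tumor Luminal Progenitor 1 cells (0.64, 0.56 to 0.71). With each cell given equal weight the ratio was 0.53, below the limit. Tnfaip3 was at 50.5 and 30.7 CPM (0.72, 0.53 to 0.91) and Birc3 at 40.2 and 24.3 CPM (0.73, 0.51 to 0.95). Nfkbia did not go with them: it was at 1167 CPM in PKA against 1328 CPM in WT (-0.19, -0.22 to -0.15). Thinned shares gave the same directions. Nfkbiz was found in 36.8% of PKA and 28.9% of WT cells, Tnfaip3 in 8.504% and 5.88%, and Birc3 in 7.20% and 4.65%, but Nfkbia in 59.6% and 66.8%. These were the 4 members whose intervals did not overlap, a count with no share of all genes to set beside it. Median depth differed in this class, 5970 UMIs in PKA and 4143 in WT, and unthinned shares, such as 60.6% and 46.3% for Nfkbiz, carry that gap.

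Icam1 was at 5.57 CPM in PKA against 2.29 CPM in WT tumor Luminal Progenitor 1 cells (1.28, 0.61 to 2.01), and Tnfaip2 at 4.05 and 2.19 CPM (0.89, 0.16 to 1.65). These are 77 against 24 and 56 against 23 UMIs. Relb was at 34.7 and 34.4 CPM (0.01, -0.19 to 0.21), C3 at 10.1 and 9.34 CPM (0.12, -0.27 to 0.50) and Ubd at 2.39 and 2.48 CPM (-0.05, -0.84 to 0.75). Without the cells that held a marker UMI of another cell type the Ubd ratio was 0.80, and the libraries held 33 and 26 Ubd UMIs in all. The lower Relb, C3 and Ubd of the PKA hyperplasia library were therefore not seen at this stage in the same class. The difference between stages has no test.

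Among the other pathway genes of tumor Luminal Progenitor 1 cells, 3 of 9 measured receptors were higher in PKA and 0 lower, where 14.1% of all measured genes were higher and 9.78% lower. Il1r1, the interleukin 1 receptor, was at 5.13 against 0.57 CPM (71 and 6 UMIs). It passed the UMI minimum only through the PKA library where it is high, so its call adds no support to the 3 of 9. Tlr3 was at 21.3 against 13.2 CPM and Tlr4 at 13.8 against 9.05 CPM, both receptors for microbial products. Tnf was at 125 against 78.3 CPM (0.67, 0.55 to 0.80), the 1 ligand called of 2. Of 8 subunits and further IkB proteins 1 was higher, Rel, at 14.1 against 4.10 CPM (1.78, 1.30 to 2.29), while Rela was at 109 and 108 CPM. Of 23 kinases and adaptors 1 was higher (Irak3) and 1 lower (Traf1, 14.5 against 43.3 CPM). Of 17 other targets, a list that also holds Traf1, 4 were higher (Ccl2, Cxcl1, Gadd45b and Csf1) and 3 lower (Ripk2, Traf1 and Cxcl5), with a median log2 ratio of 0.15. Ccl2 was at 30.2 against 4.86 CPM and Cxcl1 at 174 against 89.5 CPM. These 2 were higher in PKA at both stages.

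In tumor Mature Luminal cells 2 of 7 measured members were higher in PKA and 0 lower, against 15.5% and 9.89%. Nfkbiz was at 232 and 150 CPM (0.62, 0.43 to 0.81) and Tnfaip3 at 30.7 and 13.5 CPM (1.18, 0.60 to 1.76). Fibroblast markers summed to 901 CPM in WT and 30.0 CPM in PKA Mature Luminal cells. In WT only 2 of the 6 markers, Col1a1 and Dcn, had a UMI. The filter on marker UMIs used Col1a1 but not Dcn, so cells with Dcn alone stayed in. Without cells that held a marker UMI of another cell type the ratios of Nfkbiz and Tnfaip3 were 0.62 and 1.21. Under TMM scaling, a trimmed mean over all genes, that of Nfkbiz was 0.43 and no longer called. In the class labelled EMT-like 0 of 4 were higher and 2 lower, against 11.8% and 13.8%. There Nfkbia was at 175 CPM in PKA against 271 CPM in WT (-0.63, -0.87 to -0.40), or -0.42 with each cell given equal weight, and Relb at 16.6 and 32.7 CPM (-0.98, -1.80 to -0.23). Icam1 had 4 UMIs in PKA and 0 in WT, too few to measure.

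Lumino-Basal cells of the PKA tumor library held the highest Nfkbia level of all 16 class sums. They also came first for Relb (95.2 CPM, 67.7 to 130.1) and Ubd (122 CPM, 90.6 to 161), but these intervals overlap those of the second sums, 85.9 CPM (59.1 to 121) in WT hyperplasia Mature Luminal cells for Relb and 103 CPM (95.7 to 110) in WT hyperplasia Luminal Progenitor 1 cells for Ubd. Without its highest cell Ubd was at 86.8 CPM. Of 7 measured members 5 were higher in PKA (Nfkbia, Relb, Ubd, Birc3 and Icam1) and 0 lower, against 17.9% and 29.1%, with a median log2 ratio of 0.86 beside -0.12 for all measured genes. Ubd passed the minimum of 50 UMIs only through the PKA library where it is high, with 50 UMIs there and 1 in WT. Its call therefore adds no support to the count of 5, and the median includes it. Nfkbia was at 3839 CPM in PKA against 1554 CPM in WT (1.31, 1.23 to 1.38). A UMI was present in 62 of the 66 PKA cells, and without the 5 highest cells the level was 3133 CPM. Relb was at 95.2 and 41.0 CPM (1.21, 0.69 to 1.70), in 29 of 66 PKA and 221 of 1198 WT cells. Nfkbiz was at 303 and 210 CPM (0.53, 0.25 to 0.79) and Tnfaip3 at 73.2 and 78.9 CPM (-0.11, -0.69 to 0.42). Birc3 and Icam1 rest on 16 and 6 PKA UMIs, and their calls were lost under TMM scaling (Birc3, 0.45) or with each cell given equal weight (Icam1, 0.31).

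Ubd in these cells was at 122 CPM in PKA (50 UMIs) and 0.15 CPM in WT (1 UMI), a log2 ratio of 9.67 with an interval from 7.13 to 15.0. It was found in 13 of 66 PKA cells, and the 5 highest held 37 of the 50 UMIs. Without those 5 the level was 34.8 CPM. C3 had 27 UMIs in PKA and 16 in WT, 65.9 against 2.40 CPM, of which 15 came from 1 PKA cell. Only 2 cells held C3 and Ubd together. Fibroblast markers summed to 737 CPM in PKA and 117 CPM in WT Lumino-Basal cells, and macrophage markers to 2.44 and 42.8 CPM. Without cells that held a marker UMI of another cell type the ratios of Nfkbia, Relb and Ubd were 1.30, 1.30 and 9.68. This filter, too, left in cells with Dcn alone. The defining basal markers Krt5 and Snai2 were at 0 in the PKA cells, whereas Krt14 was at 727 CPM. In WT Lumino-Basal cells Snai2 was at 0 as well, with Krt5 at 13.0 CPM and Krt14 at 948 CPM.

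Other NF-kB genes in Lumino-Basal cells went in both directions. Of 15 other measured targets 8 were higher in PKA and 1 lower, where 17.9% of all measured genes were higher and 29.1% lower. Among them Cxcl1 was at 176 against 42.1 CPM (2.06, 1.67 to 2.44), the adhesion proteoglycan gene Sdc4 at 1652 against 576 CPM (1.52, 1.40 to 1.64), and Traf1 at 56.1 against 4.79 CPM (3.55, 2.71 to 4.37). Of 7 subunits and further IkB proteins 4 were higher and 1 lower. Nfkbie, another inhibitor, was at 103 against 3.89 CPM (4.72, 3.98 to 5.48) and Nfkb2 at 80.5 against 39.5 CPM (1.03, 0.46 to 1.55). Of 23 kinases and adaptors 6 were higher and 4 lower, and of 7 receptors 1 was higher and 3 lower. The 4 of 23 and the 1 of 7 are below the shares of all genes. Like Ubd, Nfkbie and Traf1 passed the UMI minimum only through the PKA library where they are high. The call of Nfkbie therefore adds no support to the 4 of 7 higher. That of Traf1, which is on both lists, adds none to the 8 of 15 or the 6 of 23. Traf1 was thus lower in PKA in tumor Luminal Progenitor 1 cells and higher in Lumino-Basal cells, a difference that was not tested.

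**Figure D5:**
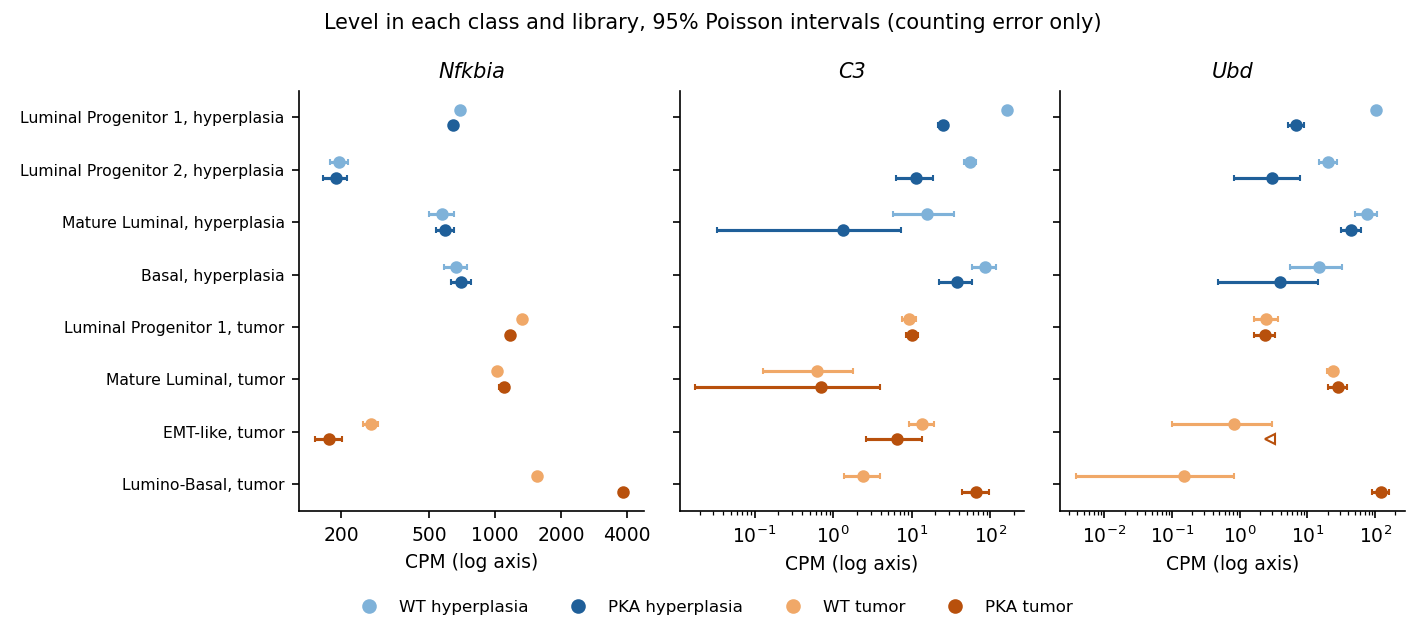
CPM of Nfkbia, C3 and Ubd in every class of every library, log axes, with 95% Poisson intervals; the open triangle marks the value 3 counts would give where none was found. Nfkbia is highest in Lumino-Basal cells at 3839 CPM, C3 is highest in WT hyperplasia Luminal Progenitor 1 cells, and Ubd reaches 122 CPM in PKA Lumino-Basal cells.

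Set against hyperplasia, tumor Luminal Progenitor 1 cells had more Nfkbia, Nfkbiz and Tnfaip3 and less of most other members in both genotypes. Over all cells 3 of 9 were higher and 5 lower in WT tumor, against 38.9% and 16.5% of all measured genes, and 3 of 9 were higher and 3 lower in PKA tumor, against 34.3% and 17.8%. For Luminal Progenitor 1 cells of WT, 3 of 9 were higher and 6 lower in tumor, against 36% and 18.9% of all measured genes. In PKA 3 of 9 were higher and 4 lower, against 36.5% and 17.8%. In both genotypes the 3 of 9 higher is thus no more than the share of all genes. Tnfaip3 was 5.24-fold higher in WT and 5.80-fold in PKA, and Nfkbiz 1.95-fold and 3.27-fold. Tnfaip2 was 25.2-fold lower in WT (log2 ratio -4.66, -5.33 to -4.05) and 23.5-fold lower in PKA (-4.55, -4.97 to -4.16). Ubd was 41.4-fold lower in WT and 2.86-fold lower in PKA, and C3 17.2-fold and 2.47-fold. Icam1 had log2 ratios of -2.57 and -1.80, Birc3 of -1.41 and -0.50, and Relb of -0.94 and -0.38.

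Stage and handling cannot be told apart here. Per the labels, the fat pads had trypsin and dispase after the collagenase and hyaluronidase digest, and the minced tumors had only the latter enzymes. The sum of immediate early genes in Luminal Progenitor 1 cells was 42159 CPM (WT) and 37796 CPM (PKA) in tumor, against 4309 and 4094 CPM in hyperplasia. All genes shifted too, with a median log2 ratio of tumor over hyperplasia of 0.24 in WT and 0.25 in PKA. Mature Luminal cells gave like directions for most members: in WT 2 of 7 were higher and 4 lower, against 32% and 20.8%, and in PKA 3 of 7 were higher and 3 lower, against 28% and 13.5%. In WT the direction differed from that in Luminal Progenitor 1 for Icam1, at 42.6 CPM in tumor against 36.4 CPM (0.23, -0.55 to 1.12), and for Tnfaip3, with 13.5 CPM in the tumor and 23.4 CPM in the hyperplasia library of WT (-0.79, -1.80 to 0.40). For Tnfaip3 in PKA the values were 30.7 and 14.5 CPM (1.09, 0.11 to 2.19). Its 44 tumor and 11 hyperplasia UMIs in PKA passed the minimum only through the tumor library, so its call adds no support to the count. Without cells that held a marker UMI of another cell type the WT ratio of Tnfaip3 was -0.34, inside the limit. Relb, one of the 4 lower in WT at -0.65, was at -0.49 under TMM scaling and -0.55 with each cell given equal weight, both inside the limit.

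Over the 16 sums of class and library, each gene had its own order of levels. Nfkbia ran from 175 CPM in the PKA class labelled EMT-like to 3839 CPM in PKA Lumino-Basal cells, with a median of 677. C3 ran from 0.61 CPM in WT tumor Mature Luminal cells to 161 CPM in WT hyperplasia Luminal Progenitor 1 cells, with a median of 12.4 and 84.6 CPM in WT Basal cells as the second. Tnfaip2 was highest in PKA hyperplasia Luminal Progenitor 1 cells, and Nfkbiz in PKA tumor Luminal Progenitor 1 cells. Icam1 was highest in PKA hyperplasia Mature Luminal cells at 78.9 CPM, followed by PKA Basal cells at 78.0 CPM, which do not differ beyond their counting intervals.

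Correlations of log2 level (CPM with 10 added) over these 16 sums are descriptions, since the sums share 4 libraries. Nfkbia went with Tnfaip3 (r = 0.85) and Nfkbiz (0.82), Tnfaip2 with Birc3 (0.83), and Relb with Ubd (0.82). Nfkbiz and Tnfaip2 were at -0.37 overall but at 0.85 within the 8 hyperplasia sums and 0.31 within the 8 tumor sums. C3 and Ubd were at 0.42. Among 3369 eligible genes, the 5 most like Nfkbia were Tnf (0.85), Rab7 (0.84), Txnl1 (0.84), Rab6a (0.83) and Trp53i11 (0.83). Tnf ranged from 12.1 CPM in PKA hyperplasia Luminal Progenitor 2 to 200.1 CPM in PKA Lumino-Basal cells. The 5 most like C3 were Cstb (0.86), Ltbp2 (0.83), Efhd2 (0.83), Pmepa1 (0.83) and Cnih4 (0.82). For Tnf and Nfkbia the value was 0.58 within hyperplasia and 0.93 within tumor.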

How the data were processed

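Each of the 4 samples came with a table of UMI counts per gene and cell barcode and a table of its annotated cells. Per the submitters' processing notes, Cell Ranger, STAR 2.5.3a and featureCounts of Subread 1.6.0 were used with GRCm38 (mm10). Per the labels, cells were sorted by flow cytometry (the gate is not described) and classified with Monocle2 from marker genes. The deposited counts are raw UMIs, and the other columns of the deposited cell tables (classes and identifiers) were used as given. The deposited mitochondrial fraction served in 1 alternative only. The authors' cell filter and treatment of doublets are not given in the sources used here, and no doublet caller was run. Positions are from GENCODE M21 (GRCm38).

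The 9 members and the pathway and marker lists were chosen with earlier results of these data known. UMIs were summed over annotated cells by library and class. CPM are relative to the class total, ratios have exact conditional binomial intervals, levels Poisson and shares Clopper-Pearson intervals, all at 95%. They cover counting error only. A gene was measured when the pair of libraries held 50 or more of its UMIs, and 1.5-fold was called. Named genes are the members, genes of the lists, and the 5 genes nearest to Nfkbia and to C3 in correlation among those of at least 100 CPM in any sum. No test was made, since each group is 1 library. Alternatives changed scaling (TMM of edgeR 4.0.16 in R 4.3.3), weighting, cell filters, class shares, the UMI minimum, the fold and the thinning. The markers of other cell types in the cell filter were Ptprc, C1qa, C1qb, Tyrobp, Cd3e, Cd79a, Cd74, Col1a1, Col1a2, Pecam1 and Cdh5. The ratio and its interval were tested on simulated data. Python 3.11.15, NumPy 2.4.6, SciPy 1.17.1 and pandas 2.3.3 were used.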

Additional observations from a re-analysis of the deposited data

Results flagged for a closer look

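Some members had PKA over WT ratios of opposite sign in different classes or stages, none of which was tested as a difference because each group has 1 library. Nfkbia had a log2 ratio of -0.63 in the tumor class labelled EMT-like and 1.31 in Lumino-Basal cells, and Relb -0.98 and 1.21 in the same classes. Tnfaip2 was at 0.78 in hyperplasia Luminal Progenitor 1 cells and -1.26 in Luminal Progenitor 2 cells, the latter from 11 and 43 UMIs. C3 over all cells was at -2.57 in hyperplasia and 0.77 in tumors, whereas within tumor Luminal Progenitor 1 cells it was at 0.12.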

How the results depend on the processing

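Of 666 alternative values for 102 member ratios, 647 kept their sign and 0 reversed a call. Of 384 for the 60 called ratios, all 384 kept their sign, 368 kept the call and 5 moved by over 1.5 times. The alternatives for tumor against hyperplasia were chosen after seeing the data.

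Counts of called members changed as follows. The shares of all genes were not computed at these settings, so the changes cannot be set against those of other genes. In hyperplasia over all cells the 2 higher members became 1 with every class weighted equally, 1 with class shares made equal between the libraries and 0 at 2-fold. In hyperplasia Luminal Progenitor 1 the 1 higher member became 2 with the mean of each cell's CPM and 0 at 2-fold. In tumors over all cells the 4 higher members became 0 at 2-fold, and were joined by Icam1 and Ubd with class shares made equal between the libraries. Ubd joined them through 50 UMIs in PKA Lumino-Basal cells, against 1 in WT. In tumor Luminal Progenitor 1 the 5 higher members became 3 with at least 200 UMIs, where 6 were measured, and 1 at 2-fold. For WT tumor against hyperplasia the 3 higher members became 1 at 2-fold. Without thinning, 8 rather than 4 members had share intervals apart in tumor Luminal Progenitor 1, again without a background of all genes.

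Over all cells, class weights mattered: with every class weighted equally the hyperplasia ratio of Tnfaip2 was 0.33 and that of Ubd -1.87, and the tumor ratios of Birc3 0.45, C3 1.69 and Tnfaip2 1.82. These weights raise tumor classes where C3 and Tnfaip2 were below the minimum of 50 UMIs. In PKA and WT, Lumino-Basal cells held 27 and 16 UMIs of C3 and 7 and 34 of Tnfaip2. The class labelled EMT-like held 7 and 33 of C3 and 9 and 2 of Tnfaip2. With class shares made equal Icam1 in hyperplasia was at 0.55. With the mean of each cell's CPM, Icam1 in Lumino-Basal cells was at 0.31 and Nfkbia in the class labelled EMT-like at -0.42. TMM moved the median of all genes by -0.22 and -0.24 in the tumor against hyperplasia ratios of Luminal Progenitor 1 (WT and PKA), by -0.18 in Lumino-Basal, -0.19 in tumor Mature Luminal and -0.12 in the class labelled EMT-like, and by 0.13 in hyperplasia Mature Luminal. It ended the calls of Birc3 in Lumino-Basal cells (0.45), Nfkbiz in tumor Mature Luminal cells (0.43) and Relb in WT Mature Luminal cells of tumor against hyperplasia (-0.49). Without cells that held a marker UMI of another cell type, the Ubd ratio of WT tumor to hyperplasia in Luminal Progenitor 1 was -6.12 (-5.37 with them). The cause of these changes was not tested. Depth limits C3, Ubd and Tnfaip2 in the small classes, several of which hold fewer than 50 UMIs of them. No paired analysis was possible because each group has 1 library.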
